A study of Rattus norvegicus with 27 samples.

Results

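The cytosolic ribosomal protein genes of the rat were examined in 27 RNA sequencing libraries of medial prefrontal cortex (mPFC), and Rpl30 was set against the other members of the family. A gene was a member if its symbol was Rpl or Rps followed by a number, or Rplp0, Rplp1, Rplp2 or Rpsa, without the Rps6k kinases, pseudogenes and -ps rows. This rule found 237 of the 36865 rows of the count table, of which 76 bore a plain symbol (45 of the large and 31 of the small subunit) and 161 a symbol that marks a copy. Counts were seen for 82 members, and 155 members were listed at 0 in every library.

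Each library came from 1 adult male Wistar rat. The labels name the tissue medial prefrontal cortex, the genotype Wistar rats and the treatment Learned helplessness for all 27, while the protocol field lists Elevated Plus-Maze, Light-Dark, Open Field, acoustic startle and fear conditioning tests, and rats were killed at rest. The methods of the study do not name learned helplessness, and they give the startle and fear tests to Long-Evans rats, not Wistar rats. Whether these rats went through any of those is therefore uncertain. For male Wistar rats the methods give the other 3 tests repeatedly, then a week of them under stronger light. A last open field test of another type followed, and blood was taken from the tail vein. The sequenced rats were picked at even steps along a ranking by composite anxiety score. No control group is labelled, every library received the same description, and the anxiety score of each rat was not used here, so the data give 1 group and its spread. The libraries held 4907255 to 12771309 counts on genes (median 8168801). The 16 libraries whose names carry numbers up to 31 held at most 8568317 counts and the 11 numbered from 32 held at least 9404220. The labels do not name this division as a batch. The study's male Wistar rats came in more than 1 cohort, and the cohort of each library is not given. Sequencing depth, library number and a possible difference of cohort cannot be told apart.

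The ribosome is built from ribosomal RNA and a large set of proteins, most present once per particle, so that cells make the proteins of the large and small subunit in matched amounts. Their transcripts are among the most abundant of a cell. Many begin with a 5′ terminal oligopyrimidine (TOP) tract, a cytosine followed by a run of pyrimidines, through which the mTOR kinase pathway and the protein Larp1 govern their translation together. In neurons, transcripts for ribosomal proteins are also found in dendrites and axons. Rpl30 encodes a protein of the large subunit whose yeast counterpart binds its own transcript.

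The start regions of 61 of the 76 members with a plain symbol were matched in the RefSeq promoter table of the assembly GRCr8. A C directly at the annotated start followed by at least 4 bases that are C or T, read on the gene's own strand, stood in 23 of these 61 members (37.7%) and in 722 of the 27457 genes with an entry (2.63%). Such a run began within 10 bases of the start in 46 members (75.4%) and in 28.8% of all genes with an entry. The stretches below run from 15 bases before the start to 15 bases from it, with the pyrimidine run at the start in capitals. The first 3 belong to members most correlated with the rest of the family, the next 2 to members with a large spread and the next 2 to members with a small spread that hold the run. The last 4 belong to members named for their correlation, without the run at the annotated start.

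Rpl37a: gcatgcccgttgcgtCTCTTCCTCTTCggg

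Rps18: cacgtcacttccgctCTCTCTTCCacagga

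Rps3a: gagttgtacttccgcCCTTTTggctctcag

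Rps27: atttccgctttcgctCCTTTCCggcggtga

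Rpl35a: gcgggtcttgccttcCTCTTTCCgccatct

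Rpl10: caggcgtgggagcgtCTCTTTTCCTCTggc

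Rpl19: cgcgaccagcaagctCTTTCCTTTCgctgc

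Rpl18: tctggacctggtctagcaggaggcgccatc

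Rps12: gcacagaagcccagcagagcgcttaaatac

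Rplp2: cctttcgccgccggacgccgccgaggtcgc

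Rpl7a: ctctcctccagccgagcaagatggtgagtg

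In GRCr8 these stretches lie at chr9:81748076-81748105 (Rpl37a, plus strand), chr20:4933730-4933759 (Rps18, plus), chr2:173827028-173827057 (Rps3a, minus), chr2:177964592-177964621 (Rps27, minus), chr11:81235007-81235036 (Rpl35a, minus), chrX:157205835-157205864 (Rpl10, plus), chr10:83519049-83519078 (Rpl19, plus), chr1:105325255-105325284 (Rpl18, plus), chr1:23500060-23500089 (Rps12, plus), chr1:205975906-205975935 (Rplp2, plus) and chr3:30637121-30637150 (Rpl7a, plus). Among members with a mean of at least 10 counts, the 22 with the run at the start and the 37 without it had nearly the same spread and correlation. Their median SD of log2 values was 0.21 in both sets, and their median correlation with the rest of the family was 0.66 with the run and 0.64 without it. No match says only that these letters are not at the annotated start.

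The members together took 1.24% ± 0.167 (SD, n = 27) of the counts on genes. The lowest share was 1.02% in library 12, the median 1.21% and the highest 1.88% in library 3. The next highest share was 1.52% in library 19, so library 3 stood apart from the rest. The share of the large subunit members ran from 0.643% to 1.15% and that of the small subunit members from 0.374% to 0.722%, and both moved together (Spearman's rho 0.97 across the 27 libraries). The share was 1.29% ± 0.198 (n = 16) in libraries numbered up to 31 and 1.16% ± 0.0611 (n = 11) in those from 32. In bulk tissue, fewer cells of a type and less RNA per cell cannot be told apart.

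**Figure D1:**
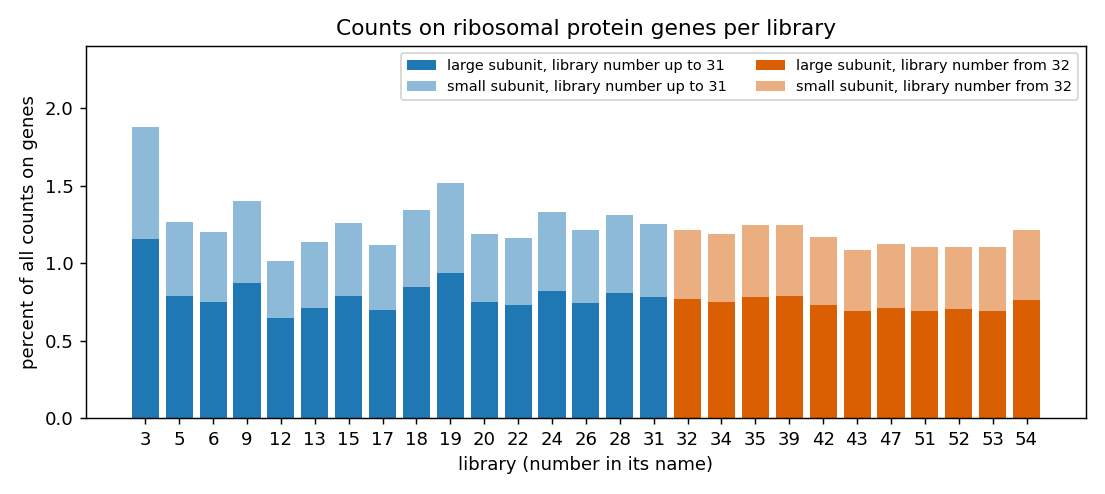
Percent of all counts on genes that fell on the large subunit members (full colour) and small subunit members (pale) in each of the 27 libraries, ordered by the number in the library's name. Library 3 reached 1.88%, library 19 reached 1.52%, and library 12 was lowest at 1.02%.

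Library 3 held the highest normalized count of 76 of the 79 members with a mean of at least 10 counts (96.2%), while it was highest for 19.8% of all genes tested. Library 12 was lowest for 27 of the 79 members, beside 6.24% of all genes tested, and library 51 for 21, beside 6.88%. Library 12 also had the most Rn18s, the 18S ribosomal RNA (20083 normalized counts), followed by library 20 (16980), while the other 25 ran from 857 to 5268, and the part of this in its low values was not tested. The summed level of the 4 oligodendrocyte markers Mbp, Mog, Mobp and Mag was 37433 in library 3 against 9513 to 23820 normalized counts in the other 26, and that of the 3 excitatory neuron markers Slc17a7, Camk2a and Neurod6 was 11298 against 13047 to 21193. Library 3 was also lowest for the inhibitory neuron markers Gad1, Gad2 and Slc32a1 (3124 against 3450 to 4990), and highest for the endothelial markers Cldn5, Flt1 and Pecam1 (2584 against 1460 to 2477) and the striatal neuron markers Drd1, Drd2, Adora2a and Ppp1r1b (2044 against 1283 to 1960). For the other 4 lists it lay within the range of the rest. Slc17a7 and Camk2a were lowest in library 3, while Neurod6 had 1235 there, above its median of 1155. Bc1, a short noncoding RNA of neurons, also had its highest value there, 62651 normalized counts, next to 62526 in library 19, and library 3 had the fewest genes with counts (13237, against 13257 to 13806). Every marker of these lists had counts in all 27 libraries. The part of cell composition, RNA quality and depth in the level of library 3 was not tested, and the main counts and correlations below are given with and without it.

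Across libraries, the share of counts on the members went down with the total count (rho -0.58, and -0.54 without library 3) and up with Bc1 (rho 0.74, and 0.71 without it). Within the ranges the rho with the total count was -0.58 up to 31 and -0.12 from 32, and that with Bc1 was 0.68 and 0.37. Its rho with the excitatory neuron markers was -0.52 over all libraries, -0.81 among the 16 numbered up to 31 and -0.06 among the 11 from 32. With the oligodendrocyte markers it was 0.07 over all libraries, 0.41 up to 31 and 0.17 from 32. With the microglia and macrophage markers (Cx3cr1, P2ry12, Csf1r, Mrc1) it was 0.44, 0.27 and 0.34. These correlations share libraries and depth and are given as descriptions.

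For most members the spread between rats was larger than counting error. Dispersion was compared with that of Poisson counts by a chi-square test, adjusted by Benjamini-Hochberg over all genes. By it, 78 of the 79 members with a mean of at least 10 counts passed the threshold of 0.05, beside 89.8% of all 11730 genes tested, so the members' share was not far from that of all genes. The exception was Rpl7a, with 103 to 172 normalized counts, a median of 115 and an adjusted p of 0.051, of whose variance counting error made up 57.0%. The median of that portion over the members was 3.81%. Here and below, normalized counts are counts divided by DESeq2 size factors (median of ratios), and log2 values are log2(normalized count + 1).

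The SD of log2 values over the 27 libraries had a median of 0.21 over the members and 0.19 over all genes tested. Genes with few counts spread more. Among genes with a mean of at least 500 counts and no more than the highest member, the median SD was 0.20 for 57 members and 0.14 for all 3926 genes. Without library 3 the members' median SD was 0.16.

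The largest spreads among members with a mean of at least 50 counts were those of Rps27, Rpl35a, Rpl17, Rplp2 and Rpl30. Rps27, a zinc finger protein of the small subunit, ran from 611 to 1756 normalized counts (median 766) (SD of log2 values 0.37). Rpl35a, a large subunit protein mutated in some families with Diamond-Blackfan anaemia, ran from 36.5 to 123 with a median of 56.5 (SD 0.36). Both were highest in library 3.

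Rpl17, a protein beside the exit tunnel of the large subunit, ran from 436 in library 53 to 1311 in library 15, with a median of 846 (SD 0.35). In library 3 it had 877, close to its median, unlike nearly all other members. Rplp2, 1 of the acidic stalk proteins that recruit elongation factors to the large subunit, ran from 136 in library 12 to 366 in library 3, with a median of 259 (SD 0.32).

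Rpl30 itself had 296 normalized counts in library 12, the lowest value, a median of 452, and 914 in library 3, the highest (SD 0.32). The second lowest was 304 in library 42 and the second highest 649 in library 32. The highest value was 3.08 times the lowest, a fold exceeded by 2 other members, against a median fold of 2.03 over the members. Rpl30 made up 0.310% to 0.619% of the members' own counts. Counting error accounted for 3.49% of its variance. Without library 3 its SD was 0.26, and again 6 members had a larger one.

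The smallest spreads were those of Rpl3, Rpl6, Rpl19, Rpl10 and Rpl14. Rpl3, which reaches towards the peptidyl transferase centre, ran only from 4740 to 6034 normalized counts (median 5178) (SD 0.08). Rpl3 was 1 of 3 members whose highest value lay outside library 3. The SDs of Rpl6, Rpl19, Rpl10 and Rpl14 lay between 0.13 and 0.14. Rpl10, which joins the large subunit late in its assembly, ran from 1720 to 2810 with a median of 2049.

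**Figure D2:**
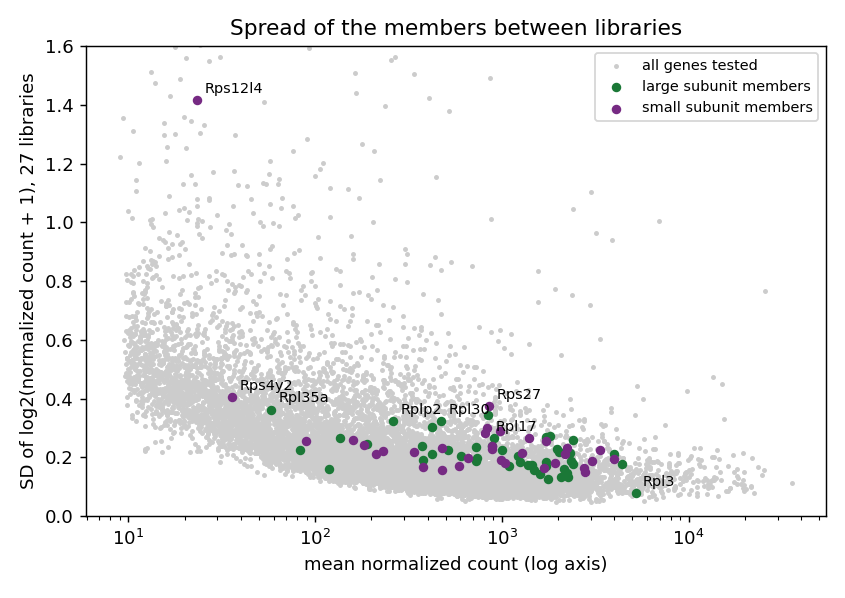
SD of log2(normalized count + 1) over 27 libraries against the mean normalized count on a log axis, for all genes tested (grey) and the members (green, large subunit; purple, small subunit). Rps27 (0.37) and Rpl30 (0.32) lie high among members of their level and Rpl3 (0.08) low, and 17 genes with an SD above 1.6 lie outside the plot.

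The members varied together. Over the 3081 pairs of the 79 members the median Spearman's rho was 0.60 (quartiles 0.45 and 0.73), and 3063 pairs had a rho above 0 (99.4%). The median over all pairs of the 11730 genes tested was -0.0049, with 49.3% above 0. The median was 0.60 within the large subunit, 0.63 within the small subunit and 0.60 between them. It was 0.69 among libraries numbered up to 31, 0.61 among those from 32 and 0.56 without library 3. The pairs share their libraries, and their correlations are not independent of each other.

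The closest pair was Rps3, which lines the mRNA entry channel of the small subunit, and Rps14, a protein of its platform, with a rho of 0.96. The members with the highest median rho to the rest were Rpl18 (0.77), Rpl37a (0.77), Rps18 (0.76), Rps3a and Rpl32. Rpl18 ran from 1020 to 1936 normalized counts (median 1199). After the median deviation of the other members was taken from each library, the SD of Rpl18 fell from 0.18 to 0.04, the smallest of the family, while the median over the members was 0.10.

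Among members with a mean of at least 50 counts, those that followed the family least were Rpl17, Rpl7a, Rps27l, Rpl36 and Rpl29. Rpl17 had a median rho of 0.15 with the other members and an SD of 0.39 after their median was taken out, more than before. The pair with the lowest rho of all, -0.25, was Rpl17 and Rps4y2. Rpl36 ran from 136 to 320 normalized counts with a median rho of 0.26, Rpl7a had 0.36, Rps27l 0.37 and Rpl29 0.39. None of these 5 medians was below 0.

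Rpl30 stood near the lower end of this order, with a median rho of 0.40 to the other 78 members. For 72 members the median rho to the family was higher and for 6 it was lower. Of the 78 correlations with Rpl30, 77 were above 0 and they ran from -0.17 to 0.70, while the median over the other 11729 genes was 0.02 with 52.3% above 0. Pearson's r had a median of 0.60, and 0.35 without library 3. The median rho was 0.55 among libraries numbered up to 31, 0.53 among those from 32 and 0.33 without library 3. After the median deviation of the other members was taken out, Rpl30 kept an SD of 0.24 on the log2 scale, and 4 members kept more.

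**Figure D3:**
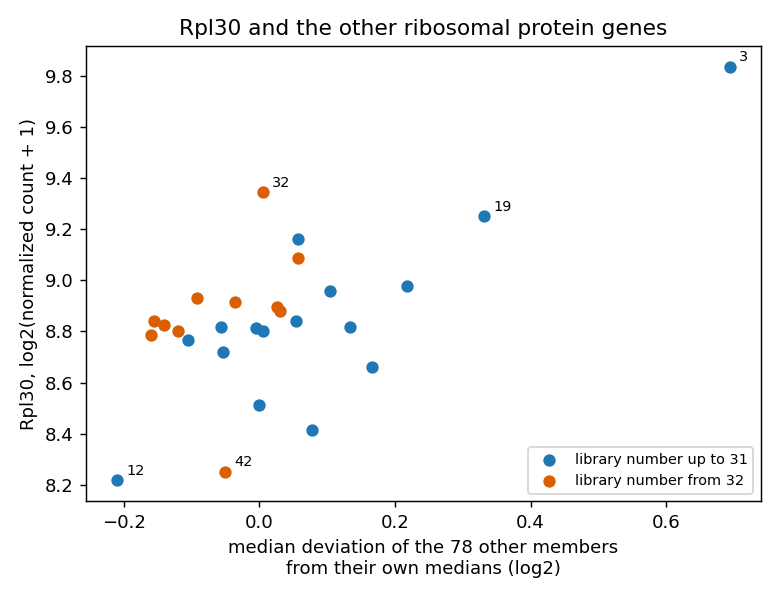
Rpl30 as log2(normalized count + 1) against the median deviation of the 78 other members from their own medians (log2), 1 point per library, coloured by library number range. Library 3 lies far to the upper right; in library 32 Rpl30 reached 649 normalized counts while the others were near their medians, and in library 42 it had 304.

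Library 32 and library 42 show where Rpl30 parted from the family. In library 32 the other members had a median deviation of 0.01 on the log2 scale, near 0, with Rpl30 at its second highest value. In library 42 they had -0.05 with Rpl30 at its second lowest. In library 3 the other members deviated by 0.69 and in library 19, where Rpl30 had 609 normalized counts, by 0.33.

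The members most like Rpl30 by rank included Rps12 (rho 0.70), Rpl14 (0.69) and Rplp2 (0.65). Rps12, a protein of the beak of the small subunit, ran from 128 normalized counts in library 12 to 289 in library 3 with a median of 173, the same extreme libraries as Rpl30. Its rho with Rpl30 was 0.78 among libraries up to 31, 0.80 among those from 32 and 0.67 without library 3. Among members with a mean of at least 50 counts, those least like Rpl30 were Rpl17 (-0.17), Rps27l (0.03), Rpl7a (0.08), Rps27 (0.08) and Rpl12 (0.14) over all libraries. The order pools both ranges of library number, and for 3 of these 5 the direction turned between them. The rho with Rpl30 was -0.41 up to 31 and 0.34 from 32 for Rpl17, 0.49 and -0.34 for Rps27l, and 0.32 and -0.13 for Rpl7a. Rps27 had 0.65 and 0.19, and Rpl12 had 0.40 and 0.25.

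**Figure D4:**
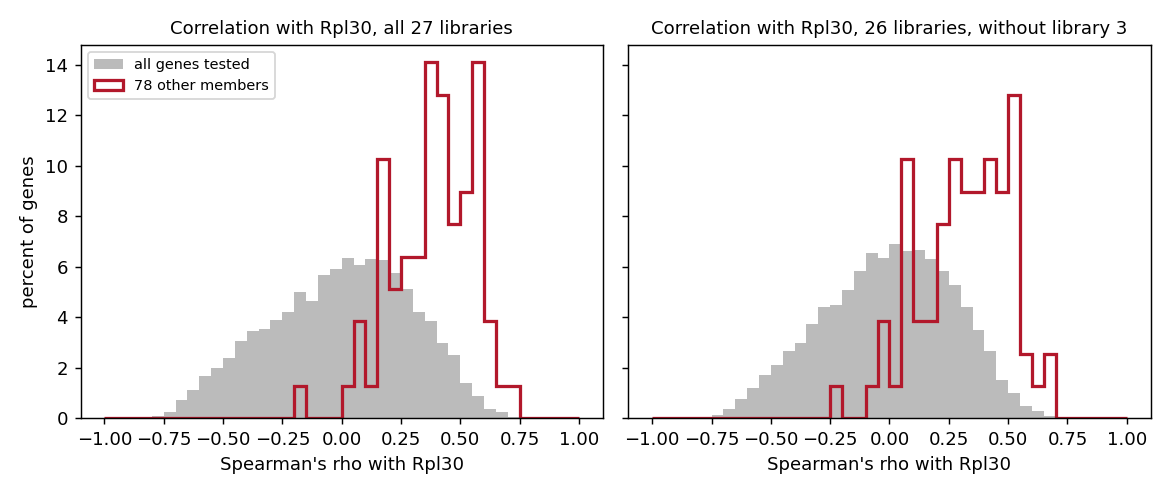
Percent of genes by Spearman's rho with Rpl30, for all genes tested (grey) and the 78 other members (red outline), over 27 libraries (left) and over 26 without library 3 (right). The members' median was 0.40 on the left and 0.33 on the right, and that of all genes 0.02 on the left.

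Among all 11729 genes, those with the highest rho to Rpl30 were Smim20 (0.72), Ccdc28a (0.72), Blcap (0.71), Rps12 (0.70) and Adissp (0.70). Smim20, a small protein of the inner mitochondrial membrane, ran from 181 to 307 normalized counts. Those with the lowest were Celf1 (-0.81), Prkg1 (-0.80), Naa25 (-0.80), Efna5 (-0.77) and Phlpp2 (-0.77). Celf1, an RNA-binding protein of splicing and mRNA decay, ran from 243 in library 3 to 514, and Phlpp2, a phosphatase of Akt, from 64.5 in library 3 to 282. All 5 were lowest in library 3. Without it their rho with Rpl30 was -0.79 for Celf1 and -0.74 for Phlpp2. These genes were chosen for their rho, which is a description.

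To ask how many genes change with Rpl30 beyond their own spread, its log2 value was entered as a covariate in units of its SD (0.32) in edgeR's quasi-likelihood test of every other gene. With all 27 libraries, 75 of the 78 members rose with Rpl30 at an adjusted p under 0.05 (96.2%), beside 10.1% of all genes that rose and 11.1% that fell. None fell, and none had a negative value at an unadjusted p under 0.05. DESeq2's Wald test called 73 members, beside 2578 of all genes in both directions, and also found none falling. The median member rose by 0.13 on the log2 scale per SD of Rpl30, against 0.01 over all genes. This count rested on library 3. Without it 2 members rose, Rps12 and Rplp2, beside 0.0938% of all genes, and 150 of all 11729 genes fell, none of them a member. In that fit 76 members kept a positive value and the median fell to 0.05. There 35 members had an unadjusted p under 0.05, all with a positive value, beside 16.6% of all genes.

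Within the 16 libraries numbered up to 31, which include library 3, 76 members rose, beside 12.5% of all genes. In the same range without library 3, edgeR called 0 members, beside 0.0% of all genes that rose, while 50 members had an unadjusted p under 0.05, all with a positive value, beside 19.6% of all genes. Within the 11 from 32, edgeR called 0 members and 0 genes. There 71 of the 78 members had a positive value, and 4 members had an unadjusted p under 0.05, 3 with a positive and 1 with a negative value, beside 6.16% of all genes, in a range where Rpl30 itself ran from 304 to 649 normalized counts. Without libraries 3 and 12, those farthest from the median of Rpl30, edgeR also called 0 members and 0 genes, 16 members had an unadjusted p under 0.05, all with a positive value, beside 10.1% of all genes, and the median was 0.04. DESeq2 was not run on these subsets.

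Rps12 rose by 0.19 per SD of Rpl30 (SE 0.031, edgeR adjusted p = 0.000649), and its adjusted p was 0.042 without library 3. Rplp2 rose by 0.21 (SE 0.046, adjusted p = 0.00196), and its adjusted p without library 3 was 0.042 as well. Neither of them passed without library 3 when library number range was added as a term, a fit in which edgeR called 0 genes. The 3 members that did not pass with all libraries were Rpl12, Rps12l4 and Rpl17. Rpl12, a protein near the base of the stalk, had 0.11 (SE 0.044, adjusted p = 0.061). Rps12l4 had 0.32 (SE 0.23, adjusted p = 0.34) and Rpl17 had -0.06 (SE 0.060, adjusted p = 0.53).

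Among 12 partners of the ribosome, 9 rose with Rpl30 over all libraries in edgeR's test, beside 10.1% of all genes. Without library 3, 0 partners rose, beside 0.0938% of all genes. The 9 included Fau, whose product holds a small subunit protein fused to a ubiquitin-like protein, and Rack1, a scaffold on the small subunit. Fau had 854 to 1882 normalized counts (median 1078) and rose by 0.17 per SD of Rpl30 (SE 0.028, adjusted p = 0.000649). Rack1 rose by 0.10 (SE 0.019, adjusted p = 0.00138), with a rho to Rpl30 of 0.57. The elongation factors Eef1a1 (0.04, SE 0.028), Eef1a2 (0.02, SE 0.026) and Eef2 (-0.01, SE 0.019) did not pass the test.

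Of 26 tested ribosome biogenesis genes, 5 rose and 1 fell, beside the 10.1% of all genes that rose and 11.1% that fell. Those that rose included Fbl, the methyltransferase of ribosomal RNA, and Eif6, which keeps the subunits apart, and the one that fell was Rrn3, a factor of RNA polymerase I. The list of mTOR signalling genes also holds Myc, a transcription factor. Of its 13 tested genes, Myc rose (0.15, SE 0.052, edgeR adjusted p = 0.039) and Mtor (-0.07, SE 0.022, adjusted p = 0.031) and Tsc1 (-0.22, SE 0.061, adjusted p = 0.011) fell, counts near those shares of all genes. Rictor and Larp1 were listed at 0 in all libraries, as were 21787 of all 36865 rows. Whether such genes are silent or were not counted is uncertain. Of 69 tested mitochondrial ribosomal protein genes 28 rose and of 80 tested oxidative phosphorylation genes 52 rose, and none of these fell. Without library 3, 1 biogenesis gene and none of the other genes of these 4 lists passed. Within libraries numbered up to 31, 46 oxidative phosphorylation genes rose and none fell, 19 mitochondrial ribosomal genes rose and 1 fell, 7 biogenesis genes rose and 2 fell, and 2 mTOR signalling genes rose and 3 fell, beside 12.5% of all genes that rose and 13.6% that fell. None of these passed there without library 3. The median rho between pairs of genes was 0.50 within oxidative phosphorylation, 0.30 within the mitochondrial ribosome, 0.07 within biogenesis and -0.05 within mTOR signalling, beside 0.60 within the members.

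Libraries were then compared by range of library number. In edgeR's test, 24 of 79 members (30.4%) were lower in the libraries from 32, beside 8.59% of all genes that were lower and 9.69% that were higher. With all libraries no member was higher, and none had a positive value at an unadjusted p under 0.05. DESeq2's Wald test also found none, and called 26 lower, with its share over all genes not given here. Leaving out Rps12l4, which passed the minimum of 10 counts only through the range where it was high, 23 of 78 were lower. Of the 24, 11 belonged to the large and 13 to the small subunit. The median log2 change was -0.12 over the members and 0.01 over all genes, and 71 members had a negative value, as did 48.3% of all genes. Without library 3 the count of lower members was 24, and 1 member, Rpl29, was higher (log2 change 0.16, SE 0.049, edgeR adjusted p = 0.018), against 0.12 (SE 0.061, adjusted p = 0.16) with all libraries. The ranges overlapped for every member tested, and did not overlap for 0.324% of all genes tested.

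Rps27 was lower by the largest step among plain symbols. It had 994 ± 250 normalized counts (SD, n = 16) up to 31 and 661 ± 43.7 (n = 11) from 32, a log2 change of -0.58 (SE 0.098, edgeR adjusted p = 0.000124). Its values ran from 709 to 1756 in the first range and from 611 to 766 in the second. Rpl35a had 65.6 ± 18.4 and 47.9 ± 7.29 (log2 change -0.44, SE 0.12, adjusted p = 0.011). Rps14, whose loss in blood stem cells underlies the anaemia of the 5q- syndrome, had 898 ± 192 and 690 ± 63.5 (log2 change -0.37, SE 0.085, adjusted p = 0.00245).

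Rpl30 was not among them. It had 475 ± 141 normalized counts (n = 16) up to 31 and 473 ± 82.2 (n = 11) from 32, with a log2 change of 0.01 (SE 0.12, adjusted p = 0.98), and 7 members had a higher log2 change. Of the 12 partners, 6 were lower from 32 and 2 were higher, beside 8.59% and 9.69% of all genes. Eef1a1, the elongation factor of most tissues, was lower (-0.25, SE 0.036, adjusted p = 3.08e-05), and Eef1a2, its form in neurons and muscle, was higher (0.16, SE 0.042, adjusted p = 0.00671). Other measures parted with the ranges as well. The median of Bc1 was 32285 normalized counts up to 31 and 15879 from 32, and that of Rn7sl1, the RNA of the signal recognition particle, was 166 and 17.8. Of the marker genes named for cell types, Mrc1, of macrophages, was lower from 32 (213 ± 94.2 against 74.2 ± 28.1, log2 change -1.51, SE 0.23, edgeR adjusted p = 4.07e-05). Slc32a1, of inhibitory neurons, was higher (829 ± 73.3 against 964 ± 114, log2 change 0.22, SE 0.054, adjusted p = 0.00381). Each was the only gene called in its list. The median log2 change was 0.06 over the 4 microglia and macrophage markers and 0.01 over the 3 inhibitory neuron markers. The part of these measures in the differences was not tested.

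**Figure D5:**
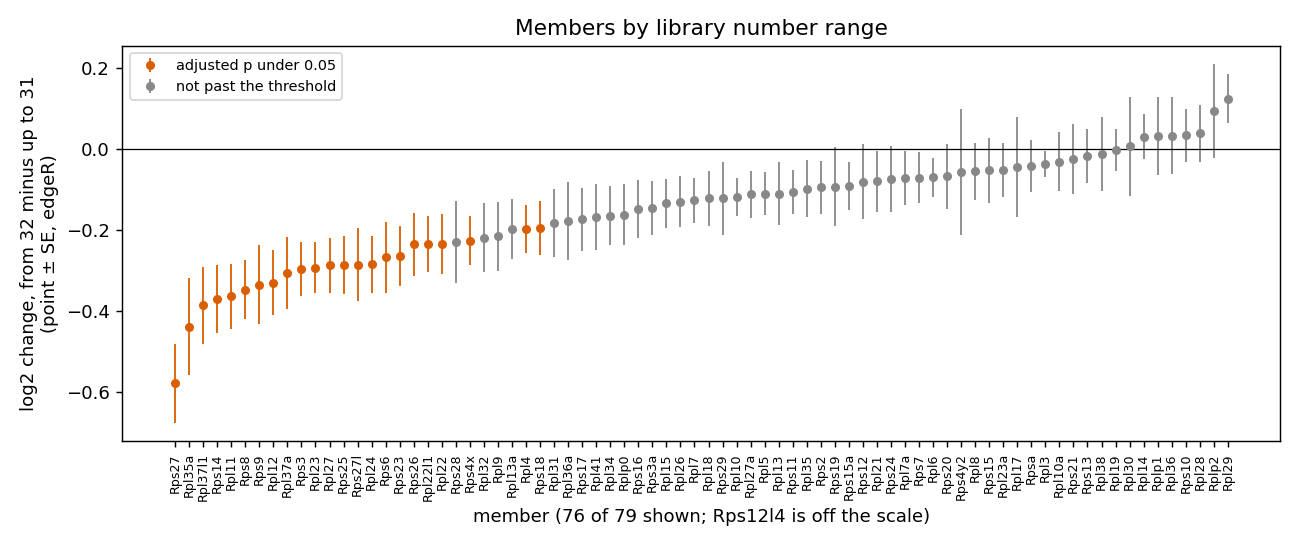
Log2 change of 76 of the 79 members between the 11 libraries numbered from 32 and the 16 numbered up to 31 (edgeR, point ± SE), in order of size, with calls at an adjusted p under 0.05 in orange. Rps27 is lowest at -0.58, Rpl30 lies at 0.01, none of the plotted members above 0 is called, and Rps12l4 (-2.72) lies off the scale.

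Of the 161 members named as copies, 153 were listed at 0 in every library and 8 had counts. Rpl22l1, a paralog of Rpl22, ran from 331 to 678 normalized counts (median 418), at 0.826 reads per read of Rpl22, and had a rho of 0.66 with it. Rpl37l1, under whose identifier RefSeq also lists the name Rpl37, ran from 301 to 851 with a median of 396. It was lower in libraries from 32 (468 ± 118, n = 16, against 355 ± 27.1, n = 11; log2 change -0.39, SE 0.095, edgeR adjusted p = 0.00468). Rps27l, a target of p53, ran from 65.1 to 167 with a median of 83.9, at 0.106 reads per read of Rps27, and had a rho of 0.75 with it.

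Rps12l4 had the widest spread of the 79 members tested, from 2.49 to 70.7 normalized counts (median 16.3). It had 35.8 ± 17.4 (n = 16) in libraries up to 31 and 5.20 ± 2.74 (n = 11) from 32, a log2 change of -2.72 (SE 0.29). With a mean of 29.6 counts in the first range and 6.82 in the second, it passed the minimum of 10 counts only through the range where it was high, so its call is no support for a difference. The lowest value of the first range, 11.4, lay just under the highest of the second, 12.4. Rps12 itself had a log2 change of -0.08 (SE 0.093, adjusted p = 0.59). Rps4y2 ran from 20.5 to 52.1 with a median of 35.5 and was highest in library 39. Rpl39l1, Rpl3l and Rpl27l2 had means of 7.81, 7.15 and 0.148 counts and were not tested.

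Rps27a, the fusion of ubiquitin with a small subunit protein, and Rpl39 were listed at 0 in all 27 libraries. A count of 0 allows up to 3 counts per library, or 2.35e-05% to 6.11e-05% of the counts on genes, for counting error only. Ribosomal protein genes have many near-identical copies in the genome, and how reads that match several loci were counted is not given in the sources used here. Of the 573 rows left out as pseudogenes or -ps rows, 567 were listed at 0 throughout. The levels of Rps27a, Rpl39 and members with close copies are therefore uncertain.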

How the data were processed

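RNA was sequenced from the mPFC of 27 rats, each giving 1 library. Raw counts per gene, with no normalization, were deposited as 1 column per library. Trimmomatic, STAR and HTSeq are named in the submitters' processing notes, with versions, genome build and strand not given in the sources used here. The label texts and the paper's methods differ on the dissected section, the library kit, the treatment and the behavioural tests. Gene identifiers were matched exactly to RefSeq (GRCr8), which named 27825 of 36865 rows. The members and lists were chosen with earlier results of these data known.

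Counts were scaled with DESeq2 (version 1.42.0) size factors. Genes with a mean of at least 10 counts entered the tests. edgeR (version 4.0.16) quasi-likelihood tests with TMM factors were fitted to all genes, with Benjamini-Hochberg adjustment over all genes, and the scripts were tested on simulated data. Because no lengths were used here, levels were not ranked between genes, ratios of reads between a copy and its parent are not corrected for length, and the rule's choice of members by level per length was left out. The rule named Rpl30, 5 members at each end of spread, of correlation with Rpl30 and with the family, and of change by library number range, every copy with counts, members with a mean under 10 counts, the 5 genes at each end of the correlation with Rpl30, and listed partner, mTOR and marker genes. Bc1, Rn7sl1, Rn18s, Rps3, Rpl22, Rpl38, Rps9, Rps19, Rpl36a and the biogenesis genes were named after their values were seen. P-values measure the spread between single samples of each rat.

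Marker genes of 9 cell types were summed per library. The sums of inhibitory neuron markers ran from 3124 to 4990 normalized counts, astrocyte markers from 10236 to 18377, endothelial markers from 1460 to 2584, meningeal fibroblast markers from 108 to 1736, striatal neuron markers from 1283 to 2044 and blood markers from 1289 to 5961. A few members and list genes that the rule names are not reported here.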

Additional observations from a re-analysis of the deposited data

Results flagged for a closer look

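Rows left out by the rule as pseudogenes also held reads, outside the measurements compared above. Rpl17-ps16 had a mean of 584 counts per library (317 to 769) and counts in all 27 libraries, or 0.669 reads per read of Rpl17, and its rho with Rpl17 was -0.28. Rpl14l1 had a mean of 44.0 counts (23 to 61), also in all 27 libraries. Rpl7-ps3 had a mean of 5.89 counts, Rpl28l1 of 2.37, Rps4x-ps1 of 1.44 and Rps7-ps20 of 0.704. No cause was tested. Groups of 27, 16 and 11 libraries are too large for the test of single outlying samples, which was not applied.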

How the results depend on the processing

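The count of 75 members that rose with Rpl30 in edgeR depended on library 3. It was 2 without library 3, 0 without library 3 with library number range as a term (52 with a positive value at an unadjusted p under 0.05, beside 2107 of the 11729 genes), 0 without the 2 libraries farthest from the median of Rpl30, 0 within libraries from 32 and 0 within libraries up to 31 without library 3. These alternatives leave out samples, and the fits without library 3 and that without library 12 (67 members) were chosen after seeing the data; no other library was left out alone. Rps27l changed sign without library 3 (-0.0024 per SD of Rpl30), without the 2 farthest libraries (-0.0092) and within libraries from 32 (-0.032), where Rps9 (-0.023), Rps19 (-0.075), Rps27 (-0.040) and Rpl36a (-0.015) did too, as did Rpl12 (-0.0030) and Rps12l4 (-0.37), which had not passed with all libraries. Under the remaining alternatives the count was 67 to 76. The median correlation of Rpl30 with the other members was 0.60 by Pearson's r (0.35 without library 3) and 0.27 to 0.55 by rho. The members' pairwise median stayed between 0.56 and 0.76, the count lower by library number range between 24 and 27, the count with spread beyond counting between 76 and 80 and the mean share between 1.16% and 1.29%. No paired analysis was possible because the labels give 1 group. Depth limits members of few counts: counting error made up 57.0% of the variance of Rpl7a and 42.6% of that of Rpl38.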
